A study of Mus musculus with 39 samples.

Results

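Retinoic acid is best known in immunology for giving T cells the address code of the gut. The 8 genes considered here are the leukocyte homing receptors of that code, Itga4, Itgb7, Itgae, Itgb1 and Ccr9, together with the vessel and tissue ligands that they meet, Vcam1, Madcam1 and Ccl25. They were taken as the rows of the deposited count table that carry these symbols, and 7 of the 8 were found among the 39676 genes of the table. Madcam1 was not analysed here. The rows were picked by symbol, but the list of symbols was drawn up with earlier results of these data known.

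The tumours grew under the skin of BALB/c mice from AB1-HA, murine mesothelioma cells with an added influenza haemagglutinin (HA) antigen. Whole-tumour RNA was sequenced for 4 treatments, PBS (n = 10), Tretinoin (n = 9), ICT (n = 10) and Tretinoin+ICT (n = 10). Tretinoin, which is all-trans retinoic acid, was injected at 5 mg/kg in 5 doses from day 4 by the labels, while other descriptions of the study differ on the dose and on the number of doses. ICT, immune checkpoint therapy, was 100 µg each of anti-CTLA-4 and anti-PD-L1, begun on day 7. The study's methods name PBS with DMSO as the control for tretinoin and PBS as the control for ICT. The labels name only PBS, so whether these control mice received DMSO is not certain. All tumours were taken on day 9. By the labels, 6 of the Tretinoin+ICT tumours belonged to a Responder and 4 to a Non-responder, judged by the second tumour that stayed in the mouse. The mice were of both sexes by the study's methods, and the labels do not give the sex or litter of each, so p-values measure the spread between these tumours. A whole tumour mixes cancer cells, leukocytes, vessels and stroma, and in such RNA more cells of a type cannot be told apart from more RNA per cell.

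A T cell primed in the presence of retinoic acid comes to carry the integrin α4β7, a pair of the chains encoded by Itga4 and Itgb7, and the chemokine receptor CCR9. The integrin holds the cell to MAdCAM-1 on gut vessels, and CCR9 draws it towards CCL25, the chemokine of the small intestine. The same α4 chain can instead pair with the β1 chain of Itgb1 to form α4β1 (VLA-4), which binds VCAM-1 on inflamed vessels, and the β7 chain can instead pair with the αE chain of Itgae (CD103), which holds lymphocytes to E-cadherin on epithelium. Several members are not restricted to T cells: α4 is carried by most leukocytes, CD103 by a subset of dendritic cells, CCR9 by plasmacytoid dendritic cells, VCAM-1 by some macrophages and stromal cells as well as vessels, and β1 by nearly all adherent cells.

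The sequence before the start site was set out for the chains of α4β7, which rose together in the results that follow, and for Itgb1, the partner chain that did not. Windows of 250 bases before the RefSeq start site were read on GRCm38.p6 for these genes, written 5′ to 3′ on the strand of the gene. Capitals mark core motifs to which retinoic acid receptors can bind, namely AGGTCA and its variants AGTTCA as well as GGGTCA besides GGTTCA, and the Sp1 box GGGCGG, each searched on both strands.
Itga4: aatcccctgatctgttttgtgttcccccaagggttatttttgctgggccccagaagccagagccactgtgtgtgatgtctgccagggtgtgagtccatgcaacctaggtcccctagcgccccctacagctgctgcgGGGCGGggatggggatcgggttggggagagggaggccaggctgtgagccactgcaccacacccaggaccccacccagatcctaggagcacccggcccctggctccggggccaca
Itgb7: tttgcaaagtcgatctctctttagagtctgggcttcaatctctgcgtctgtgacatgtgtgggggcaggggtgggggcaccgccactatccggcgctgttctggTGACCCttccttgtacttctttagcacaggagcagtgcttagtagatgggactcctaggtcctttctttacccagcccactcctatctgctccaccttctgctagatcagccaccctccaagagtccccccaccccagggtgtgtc
Itgb1: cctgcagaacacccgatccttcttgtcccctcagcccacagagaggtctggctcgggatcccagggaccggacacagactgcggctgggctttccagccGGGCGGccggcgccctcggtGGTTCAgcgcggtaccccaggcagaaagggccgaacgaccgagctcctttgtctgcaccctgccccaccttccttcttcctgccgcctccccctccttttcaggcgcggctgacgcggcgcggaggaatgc
The Itga4 window lies at chr2:79255176-79255425 on the plus strand, the Itgb7 window at chr15:102231936-102232185 on the minus strand and the Itgb1 window at chr8:128685404-128685653 on the plus strand.

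The Itga4 window held the Sp1 box at -114 to -109 from the start and none of the 4 receptor core motifs. The Itgb7 window held GGGTCA on the opposite strand at -146 to -141 and no Sp1 box. The Itgb1 window held GGTTCA at -131 to -126 and the Sp1 box at -151 to -146. Among 32851 windows of the same length, 38.6% held at least 1 of the 4 core motifs, 11.6% held GGGTCA, 8.85% held GGTTCA and 32.7% held the Sp1 box. A pair of core motifs in the same direction with a spacer of 1, 2 or 5 bases, the arrangement that the receptors prefer, was present in 0.164%, 0.174% and 0.0883% of all windows and in none of the windows of the members. These matches describe the letters of short windows and say nothing of enhancers further away. Ccr9 had a window without a match, and no window was given for Vcam1 or Itgae. A Ccl25 window held AGGTCA at -42 to -37 and GGTTCA at -177 to -172, more core motifs than any window printed above. Another Ccl25 window held no match, and Ccl25 did not pass against PBS in the results that follow. The Madcam1 window held GGGTCA on the opposite strand at -244 to -239.

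The members lie on 6 chromosomes of GRCm38 by the GENCODE M21 annotation. Itga4 spans chr2:79255426-79333123, Vcam1 chr3:116109949-116129688, Ccl25 chr8:4325210-4360020, Itgb1 chr8:128685654-128733200, Ccr9 chr9:123678439-123784330, Itgae chr11:73090583-73147446 and Itgb7 chr15:102215995-102231944. Exons of Ccl25 share 204 bases with Elavl1 on the other strand. Elavl1 had a mean of 1804 counts per tumour, whereas Ccl25 was counted 103 to 289 times. The exons of Itga4 share 1124 bases with the weakly counted Cerkl. Those of Ccr9 share 1932 bases with AC165425.1 and 269 with Gm17200, which had mean counts of 1.85 and 2.54. Ccr9 spans Lztfl1 without sharing exon bases with it, and Haspin lies inside Itgae in the same way. Since the strand used in counting is not given in the sources used here, reads of such partners cannot be told apart where exons overlap.

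Total counts per tumour ranged from 14033046 to 37951183, and each of the 7 members was counted in every tumour and passed the filter on low counts in every comparison. Levels are given as CPM, the counts of a gene scaled to a common library size with TMM factors. Of 11 genes of retinoic acid synthesis, breakdown and receptors tested, 5 were higher and 1, Rdh10, lower with Tretinoin against PBS. Cyp26b1, the enzyme that breaks retinoic acid down and is switched on by it, lay between 5.48 and 11.7 CPM in PBS tumours and between 240.2 and 384 CPM in Tretinoin tumours. Dhrs3, which turns retinal back to retinol, rose from 45.1 CPM ± 5.07 (SD, n = 10) to 285 CPM ± 28.7 (SD, n = 9). The tissue label could be checked only in part: 5 of 7 mesothelial markers had a row and summed to 58.5 to 100.1 CPM per tumour. Most of this was Pdpn, which other cells also express, at a mean of 66.9 CPM in PBS tumours, while Wt1 lay between 0.253 and 5.46 CPM and Upk3b had a median of 0 CPM. Skeletal muscle markers summed to 311 to 3569 CPM per tumour, highest in Tretinoin+ICT tumour 23. Skin keratinocyte markers summed to 3.49 to 43.1 CPM, highest in Tretinoin+ICT tumour 22. The part of such neighbouring tissue in the results below was not tested.

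Levels of different genes were compared per kilobase of exon. Itgb1, the widely shared β1 chain, was the most abundant member at 228 CPM per kilobase ± 9.81 (SD, n = 39). Vcam1 followed at 34.4 ± 11.97, Itgb7 at 25.6 ± 9.30, Itga4 at 5.94 ± 2.22 and Itgae at 4.61 ± 1.14 CPM per kilobase, with n = 39 each. The gut chemokine Ccl25, at 1.17 ± 0.182, and its receptor Ccr9, at 0.669 ± 0.215 CPM per kilobase, were the lowest (n = 39). Vcam1 and Itgb7 overlapped in range, as did Itga4 and Itgae. Dividing by the longest principal transcript in place of all exons kept Itgb1, Vcam1 and Itgb7 on top in this order, whereas Ccl25 moved to 8.20 CPM per kilobase, next to Itga4 at 8.50, so the place of Ccl25 depends on the length used.

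Tretinoin alone raised both chains of α4β7 and Vcam1, which encodes a ligand of α4 integrins, and the remaining members did not pass. Of the 7 members, 3 passed the test against PBS at a Benjamini-Hochberg adjusted p below 0.05, all of them higher, beside 20.4% of all genes tested. These were Itga4, Itgb7 and Vcam1. The median log2 fold change over the members was 0.11, against 0.01 over all genes tested.

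Itga4, the α4 chain, had a lowest, median and highest level of 30.1, 56.7 and 68.98 CPM in PBS tumours and of 59.9, 78.6 and 145 CPM in Tretinoin tumours. All but 2 of the 9 Tretinoin tumours lay above every PBS tumour, and the groups overlapped only in the range between 59.9 and 68.98 CPM. The log2 fold change was 0.76 (SE 0.17), a fold of 1.69 with an approximate 95% interval from 1.34 to 2.14, at an edgeR adjusted p = 0.00481. Tretinoin tumours 71, 33 and 32 were the highest at 145, 122 and 121 CPM, a step above the others, which stayed at or below 79.5 CPM.

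Itgb7, the β7 chain, ranged from 41.5 to 61.9 CPM in PBS tumours, with a median of 49.2. In Tretinoin tumours it ranged from 51.3 to 95.7 CPM, with a median of 72.1. All 9 Tretinoin tumours exceeded the PBS median and 6 exceeded every PBS tumour. The log2 fold change was 0.47 (SE 0.09), a fold of 1.39 (1.22 to 1.58), at an adjusted p = 0.00164 by edgeR. When all 39 tumours entered a single fit the adjusted p was 0.0575.

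Vcam1 encodes a ligand of α4β1 that α4β7 also binds, and the cells that carried its RNA here are not known. It ranged from 171 to 287 CPM in PBS tumours, with a median of 201. In Tretinoin tumours it ranged from 211 to 514 CPM, with a median of 290. The highest Tretinoin values were those of tumours 33 and 32, and 5 of 9 tumours lay above every PBS tumour. The log2 fold change was 0.64 (SE 0.15, edgeR adjusted p = 0.00629), a fold of 1.55 (1.27 to 1.91). With each of the 19 tumours left out in turn, Itga4, Itgb7 and Vcam1 passed in every fit.

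**Figure D1:**
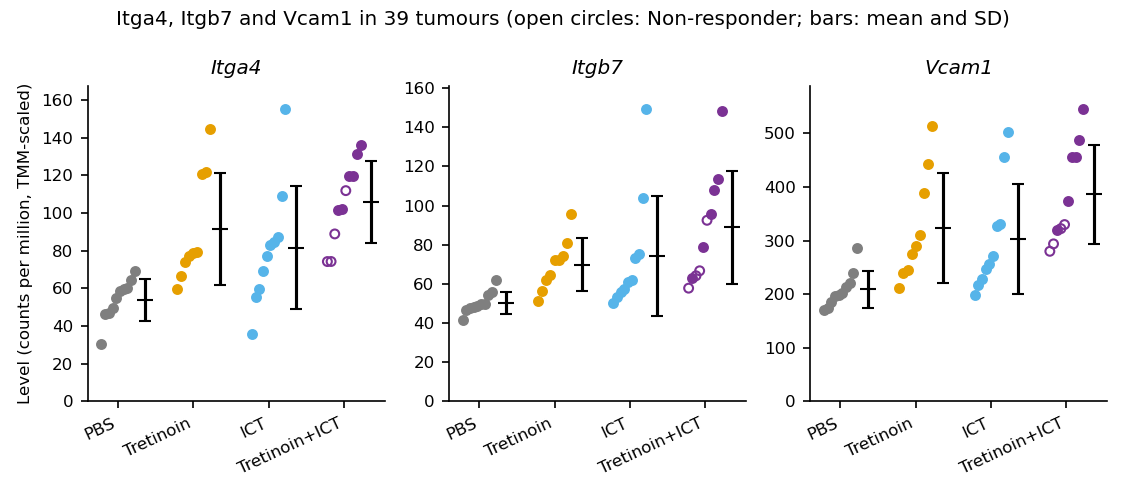
Level of Itga4, Itgb7 and Vcam1 (CPM after TMM scaling, linear axis from 0) in each of 39 tumours by treatment group, sorted by value within a group. Bars give the mean and SD, and open circles are Non-responder tumours. Every Tretinoin+ICT tumour lies above the PBS maximum of 68.98 CPM for Itga4, and the ICT group is drawn upwards by tumours 63 and 82.

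Of the leukocyte markers, Ptprc and the T cell markers did not pass in this comparison, and some markers of other leukocytes did. Ptprc, which encodes the pan-leukocyte protein CD45, was 250 CPM ± 63.2 (SD, n = 10) in PBS tumours and 275 CPM ± 73.7 (SD, n = 9) in Tretinoin tumours, a log2 fold change of 0.14 (SE 0.16, edgeR adjusted p = 0.562). Of 12 T cell markers tested, none passed, with 0.42 (SE 0.18, adjusted p = 0.108, edgeR) for Cd3e on the log2 scale. The summed level of these markers ran from 131 to 250.03 CPM in PBS tumours and from 133 to 366 CPM in Tretinoin tumours, and none was at 0. Clec9a and Batf3, of 8 dendritic cell markers, were higher, with log2 fold changes of 1.20 (SE 0.21, edgeR adjusted p = 0.000481) and 1.34 (SE 0.37, edgeR adjusted p = 0.0170). So were 1 of 5 macrophage and monocyte markers (Fcgr1), 1 of 5 NK cell markers (Eomes) and 1 of 5 B cell markers (Cd22), whereas 1 of 4 mast cell markers (Ms4a2) was lower. These counts lie near the 20.4% of all genes tested that passed, so they show no shift of these leukocytes. The 8 dendritic cell markers had a median log2 fold change of 0.03, against 0.01 over all genes tested. None of the neutrophil or eosinophil markers tested passed. Of 9 endothelial markers, 5 were higher and none lower, and their summed level rose from 313 to 370.0 CPM in PBS tumours to 367 to 476 CPM. The part of leukocyte and vessel content in the Itga4, Itgb7 and Vcam1 results was not tested.

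Set against Ptprc, the α4 chain separated Tretinoin from PBS tumours without overlap. This ratio was chosen after the values were seen and is given as a description. How many other genes would separate these groups in the same way was not counted, so the separation is not shown to be particular to Itga4. The same holds for the counts of tumours above every PBS tumour given for single members. The log2 ratio of Itga4 to Ptprc lay between -2.55 and -1.99 in the 10 PBS tumours and between -1.79 and -1.28 in the 9 Tretinoin tumours. In ICT tumours it lay between -2.37 and -1.91, which overlapped PBS. Tretinoin+ICT tumours lay in between, from -2.29 to -1.38, with a mean of -1.94 against -2.21 in PBS and -1.61 in Tretinoin. The corresponding means for Itgb7 were -2.28 in PBS, -1.96 in Tretinoin, -2.28 in ICT and -2.23 in Tretinoin+ICT, with overlapping ranges. For Vcam1 they were -0.24, 0.22, -0.23 and -0.08.

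**Figure D2:**
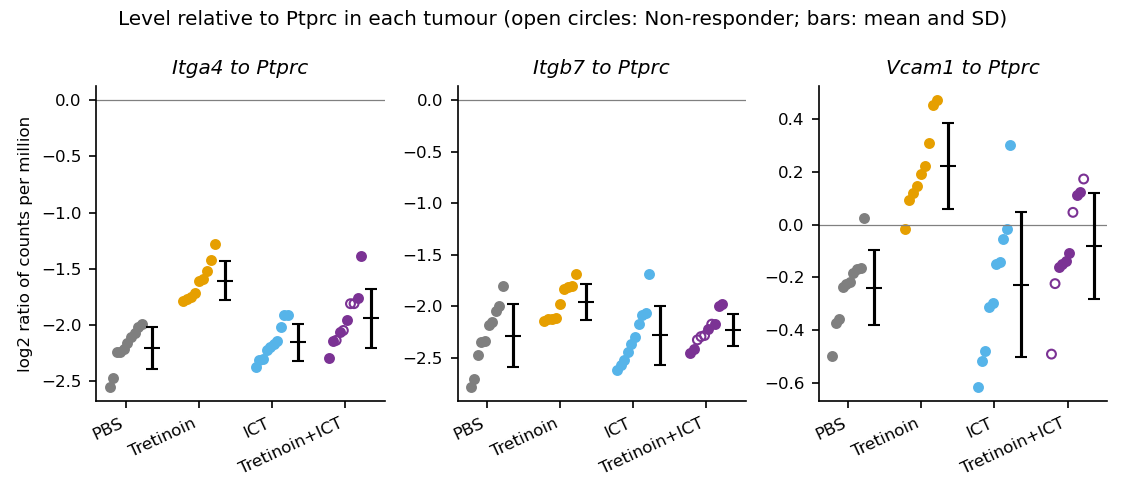
Log2 ratio of the CPM of Itga4, Itgb7 and Vcam1 to those of Ptprc in each of 39 tumours, by treatment group and sorted by value within a group; bars give the mean and SD, open circles are Non-responder tumours, and the vertical scales differ. For Itga4 all Tretinoin tumours, from -1.79 upwards, lie above all PBS tumours, which reach -1.99, and above all ICT tumours, which reach -1.91.

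Itgae and Ccr9, the other gut receptors, differed little from PBS. Itgae ranged from 13.5 to 24.4 CPM in PBS tumours and from 14.8 to 26.3 CPM in Tretinoin tumours, with a log2 fold change of 0.11 whose approximate 95% interval ran from -0.15 to 0.36. Ccr9 ranged from 3.58 to 8.33 CPM and from 4.72 to 7.83 CPM in the same groups, and its difference was 0.03, with an interval from -0.26 to 0.31. A rise of the size seen for Itga4 lay outside these intervals. Ccl25, the ligand of CCR9, gave -0.06 (-0.25 to 0.13). Itgb1 was 956 CPM ± 19.7 (SD, n = 10) in PBS tumours and 913 CPM ± 36.8 (SD, n = 9) in Tretinoin tumours, a log2 fold change of -0.07 (SE 0.03) with an adjusted p of 0.141 by edgeR and 0.0254 by DESeq2. In 6 of 9 Tretinoin tumours Itgb1 lay below every PBS tumour.

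**Figure D3:**
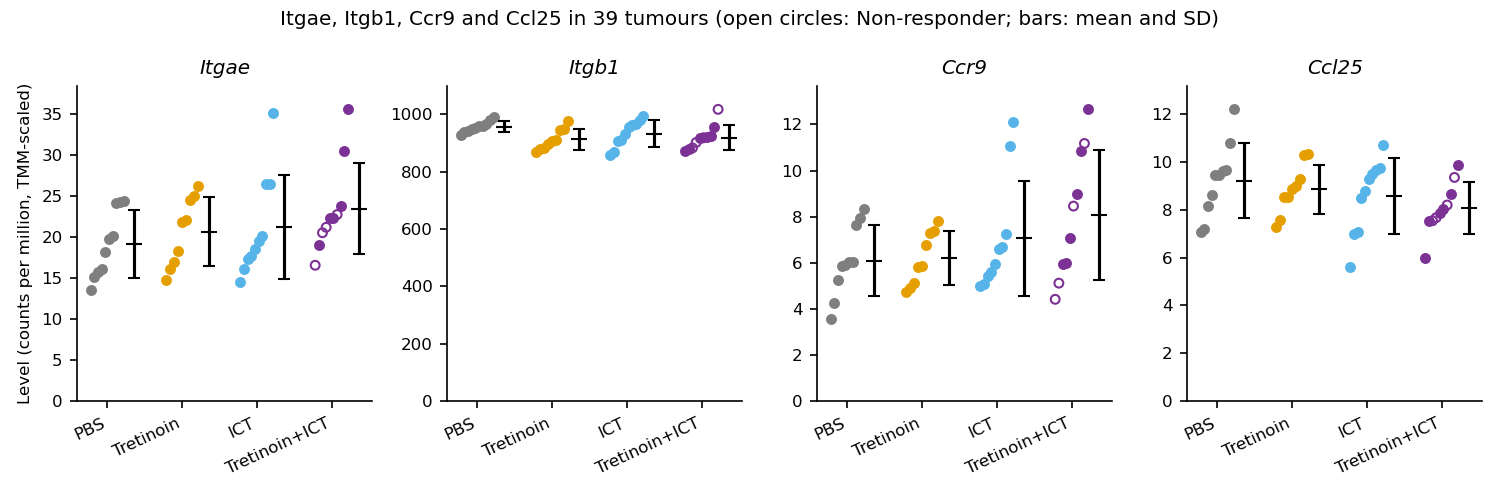
Level of Itgae, Itgb1, Ccr9 and Ccl25 (CPM after TMM scaling, linear axes from 0) in each of 39 tumours by treatment group, sorted by value within a group, with the mean and SD as bars and Non-responder tumours as open circles. The groups overlap throughout, and Itgb1 stays between 857 and 1017 CPM.

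The proportions of the partner chains were then set out. Per kilobase of exon, Itgb1 exceeded Itga4 by a factor with a median of 57.9 in PBS tumours (46.0 to 109), 39.5 in Tretinoin tumours (20.9 to 54.2), 39.3 in ICT tumours (20.6 to 87.3) and 28.2 in Tretinoin+ICT tumours (22.7 to 46.9). The ratio of Itgb7 to Itgb1 had medians of 0.0764, 0.117, 0.0943 and 0.138 in the same order. Itgb7 stayed above Itga4 per kilobase in every tumour, by a factor between 2.82 and 8.04. Transcript ratios are not ratios of the assembled integrins, and they shift by a fixed factor with the exon length used.

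ICT alone was also followed by higher Itga4, Itgb7 and Vcam1. Against PBS, 3 of 7 members passed, all higher, beside 21.2% of all genes tested. Both contrasts use the same PBS tumours. Itga4 had a lowest, median and highest level of 35.5, 80.1 and 155 CPM in ICT tumours, and 7 of 10 lay above every PBS tumour. Its log2 fold change was 0.59 (SE 0.20, edgeR adjusted p = 0.0395). Itgb7 ranged from 49.95 to 149 CPM with a median of 61.5, and gave 0.55 (SE 0.17, edgeR adjusted p = 0.0245). Vcam1 ranged from 198 to 502 CPM with a median of 264, and gave 0.54 (SE 0.16, edgeR adjusted p = 0.0203).

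ICT tumours 63 and 82 held the highest levels of all 3 genes in their group. Without this pair, Itgb7 alone passed, Itga4 gave 0.35 (edgeR adjusted p = 0.187) and Vcam1 0.31 (edgeR adjusted p = 0.0744). With tumour 63 alone left out, Itga4 gave 0.44 with an adjusted p of 0.0855 (edgeR). With tumour 82 alone left out, Vcam1 was the only member to pass, Itga4 giving an adjusted p of 0.0791 and Itgb7 of 0.0528 (edgeR). Over the 20 fits that leave out a single tumour, Vcam1 passed in 20, Itgb7 in 19 and Itga4 in 7. Markers of other leukocytes moved in the same comparison, beside 21.2% of all genes tested. All 5 macrophage and monocyte markers and all 4 neutrophil markers tested were higher, and the macrophage and monocyte markers summed to 1183 to 1770 CPM in PBS and 1393 to 2739 CPM in ICT tumours. None of the 12 T cell markers passed, and Ptprc gave 0.57 (SE 0.22, edgeR adjusted p = 0.0723). The part of leukocyte content in these results was not tested.

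Itgae, Itgb1, Ccr9 and Ccl25 did not pass with ICT. Their log2 fold changes were 0.14, -0.04, 0.21 and -0.11, with adjusted p between 0.348 and 0.524 (edgeR). Tumour 82 had the highest Itgae (35.1 CPM) and Ccr9 (12.1 CPM) of its group.

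The mean levels of Itga4, Itgb7 and Vcam1 were highest under the combination, although the highest single tumours for Itga4 and Itgb7 were in the ICT group. Against PBS, Tretinoin+ICT tumours had 3 of 7 members higher and none lower, beside 50.3% of all genes tested, so that the members were called no more often than genes at large. Itga4 had a lowest, median and highest level of 74.2, 107 and 136 CPM, and all 10 tumours lay above every PBS tumour. Its log2 fold change was 0.98 (SE 0.14), a fold of 1.97 (1.64 to 2.37), at an edgeR adjusted p = 1.07e-05. Itgb7 ranged from 57.8 to 149 CPM with a median of 85.7, with a log2 fold change of 0.82 (SE 0.15, edgeR adjusted p = 0.000131). Vcam1 ranged from 280 to 545 CPM with a median of 352, and its log2 fold change was 0.89 (SE 0.12, edgeR adjusted p = 1.00e-05). For each of the latter pair 9 of 10 tumours lay above every PBS tumour.

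Ptprc passed here as well, with 0.72 (SE 0.15, edgeR adjusted p = 0.000656), as did 5 of 5 macrophage and monocyte, 5 of 5 NK cell and 4 of 12 T cell markers. Of all genes tested, 50.3% passed in this comparison. Itgae and Ccr9 came near the threshold, with log2 fold changes of 0.30 (SE 0.13, edgeR adjusted p = 0.0699) and 0.41 (SE 0.19, edgeR adjusted p = 0.0756). Without PBS tumour 14 both passed, at 0.0464 and 0.0499, and without Tretinoin+ICT tumour 25 at 0.0337 and 0.0310 (adjusted p, edgeR). Itgae also passed without PBS tumour 54 (0.0429) or 55 (0.0457), and Ccr9 without Tretinoin+ICT tumour 44 (0.0414). Itgb1 gave -0.05 (-0.12 to 0.01), with 8 of 10 tumours below every PBS tumour, and Ccl25 -0.19 (-0.38 to 0.00) on the log2 scale.

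**Figure D4:**
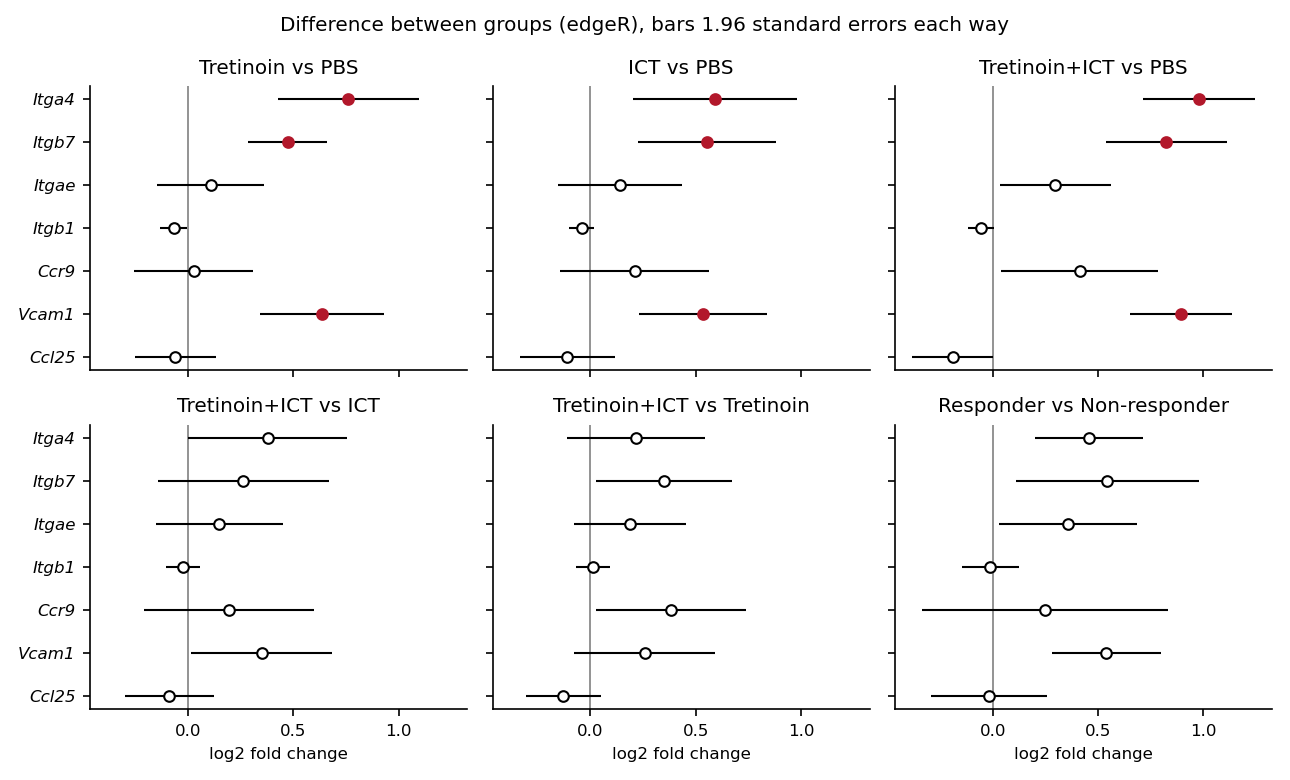
Log2 fold change of the 7 members in 6 comparisons (edgeR); bars extend 1.96 standard errors each way, filled red points have an adjusted p below 0.05 and open points do not. Itga4, Itgb7 and Vcam1 are filled in the 3 comparisons with PBS, at 0.47 to 0.98, and no member is filled in the other 3.

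No member passed when the combination was set against either treatment alone. Against ICT alone, none of the 7 members passed in Tretinoin+ICT tumours, beside 1.99% of all genes tested. Itga4 gave 0.38 (-0.00 to 0.76), Vcam1 0.35 (0.02 to 0.68) and Itgb7 0.26 (-0.14 to 0.67), with edgeR adjusted p of 0.301, 0.281 and 0.483. All 10 Tretinoin+ICT tumours exceeded the ICT median of Vcam1. This comparison turned on ICT tumours 63 and 82: without the pair, Itga4 gave 0.62 (edgeR adjusted p = 0.0211), Itgb7 0.54 (edgeR adjusted p = 0.0347) and Vcam1 0.57 (edgeR adjusted p = 0.0159). With either left out alone none passed. Against Tretinoin alone, none of the members passed beside 21.4% of all genes. Itgb7 gave 0.35 (0.03 to 0.67, edgeR adjusted p = 0.125), Ccr9 0.38 (0.03 to 0.74, edgeR adjusted p = 0.126), Vcam1 0.26 (-0.08 to 0.59) and Itga4 0.22 (-0.11 to 0.55).

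The effect of Tretinoin was then compared between tumours with and without ICT as an interaction over all 39 tumours. None of the members passed, beside 0.307% of all genes. The interaction was -0.38 (SE 0.27, edgeR adjusted p = 0.678) for Itga4, -0.28 (SE 0.23) for Vcam1, -0.21 (SE 0.24) for Itgb7 and 0.16 (SE 0.26) for Ccr9 on the log2 scale. The approximate 95% interval for Itga4 ran from -0.90 to 0.14, so a difference was not detectable at this error. Cyp26b1 was itself lower in the combination, at 126 CPM ± 33.7 (SD, n = 10), than with Tretinoin alone, at 304 CPM ± 46.6 (SD, n = 9).

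Within the combination, the tumours of Responder mice were compared with those of Non-responder mice. Outcome was spread unevenly over the first digit of the tumour labels, whose meaning is not given. Responder tumours 22 and 24 shared a digit with Non-responder tumours 21, 23 and 25. Responder tumours 41, 42, 43 and 45 shared theirs with Non-responder tumour 44. The main fit held no term for this digit, so it is partly mixed with outcome in the values below. Between digits 4 and 2 of this group, the members differed by -0.26 (Ccr9) to 0.13 (Vcam1) on the log2 scale. Itga4 gave 0.02 and Itgb7 0.11. By edgeR, 0 of 14604 genes passed, so that 0% of all genes and none of the members were called, although 3302 genes had an unadjusted p below 0.05. DESeq2 called 1401 genes in the same tumours, 10.9% of those it tested. Vcam1 measured 280, 294, 322 and 330 CPM in the 4 Non-responder tumours, and its lowest, median and highest level in the 6 Responder tumours was 320, 456 and 545 CPM. All but 1 Responder tumour lay above every Non-responder tumour. The log2 fold change was 0.54 (SE 0.13) with an unadjusted p from edgeR of 0.00158 and an adjusted p of 0.0857, against an adjusted p of 0.00704 by DESeq2.

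Itga4 measured 74.2, 74.3, 88.9 and 112 CPM in Non-responder tumours and ranged from 102 to 136 CPM, with a median of 120, in Responder tumours. It gave 0.46 (SE 0.13), with an adjusted p of 0.0942 by edgeR and 0.0254 by DESeq2. Itgb7 gave 0.54 (SE 0.22, edgeR adjusted p = 0.180) and Itgae 0.36 (SE 0.17, edgeR adjusted p = 0.231). Without Responder tumour 43, Vcam1 and Itga4 passed in edgeR at 0.0229 and 0.0380 (adjusted p). Ptprc stood at 458 CPM ± 94.6 (SD, n = 6) in Responder tumours and 341 CPM ± 86.6 (SD, n = 4) in Non-responder tumours, and the macrophage and monocyte markers summed to 2059 to 2472 CPM and 1702 to 2012 CPM. Neither the T cell nor the macrophage markers passed, and their part in these values was not tested.

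How the members varied among tumours of the same treatment was described by correlation of log2 CPM over the 39 tumours after removal of group means. The tumours differed in library depth and in leukocyte content, which many genes can follow together, and no p is given. Itga4, Itgb7 and Vcam1 went together, with Pearson r of 0.65 (Itga4 and Itgb7), 0.77 (Itga4 and Vcam1) and 0.82 (Itgb7 and Vcam1), and Spearman rho of 0.62, 0.74 and 0.75. Each also followed Ptprc, at r of 0.90, 0.84 and 0.89 and rho of 0.88, 0.80 and 0.85. Vcam1 gave r = 0.90 (rho = 0.88) to the macrophage and monocyte markers, r = 0.76 (rho = 0.78) to the other endothelial adhesion molecules and r = -0.26 (rho = -0.27) to the endothelial cell markers. The last list was split, with r = 0.71 (rho = 0.63) for Pecam1 and r = -0.68 (rho = -0.67) for Cdh5, so its mean gives no single answer. Itgb1 ran opposite to the leukocyte markers, with r = -0.43 (rho = -0.44) to Ptprc, and Ccl25 gave r = 0.10 (rho = 0.08) to Ptprc and -0.01 (rho = -0.08) to the T cell markers.

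Itgae correlated most with the dendritic cell markers, at r = 0.78 (rho = 0.74), against 0.61 (rho = 0.58) for the T cell markers. The 3 genes most like Itgae were Gcsam (r = 0.83, rho = 0.81), Flt3 (r = 0.81, rho = 0.78) and Rab11fip4 (r = 0.78, rho = 0.76). Flt3, the growth factor receptor of dendritic cell precursors, is itself in the dendritic cell list. Ccr9 followed Ptprc at r = 0.72 (rho = 0.69), Itgb7 at r = 0.70 (rho = 0.65) and the dendritic, B, NK and T cell markers at r of 0.70, 0.70, 0.70 and 0.68. The 3 genes most like it were Siglech (r = 0.83, rho = 0.81), a marker of plasmacytoid dendritic cells, Zfp677 (r = 0.80, rho = 0.80) and H2-Ob (r = 0.80, rho = 0.75).

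Among genes with a mean of at least 1 log2 CPM, those most like Itga4 were Dock10 (r = 0.94, rho = 0.93), Gm5431 (r = 0.93, rho = 0.89) and Xist (r = 0.92, rho = 0.90), the RNA of the inactive X chromosome. Those most like Itgb7 were Acvrl1, Stxbp2 and Ap1g2, at r of 0.94, 0.94 and 0.94 and rho of 0.92 each. Vcam1 went with the complement genes C1s1, C1s2 and C1ra, at r of 0.96, 0.96 and 0.96. C1s1 and C1s2 are near-identical copies that can share reads, as can Gm5431 and its relatives, so their separate values are uncertain. The genes most like Itgb1 were Pgm1 (r = 0.78, rho = 0.77), Cul3 (r = 0.76, rho = 0.66) and Cfdp1 (r = 0.75, rho = 0.74), and those most like Ccl25 were Gm37776 (r = 0.79, rho = 0.67), Mtcp1 (r = 0.78, rho = 0.76) and Phc3 (r = 0.78, rho = 0.74).

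**Figure D5:**
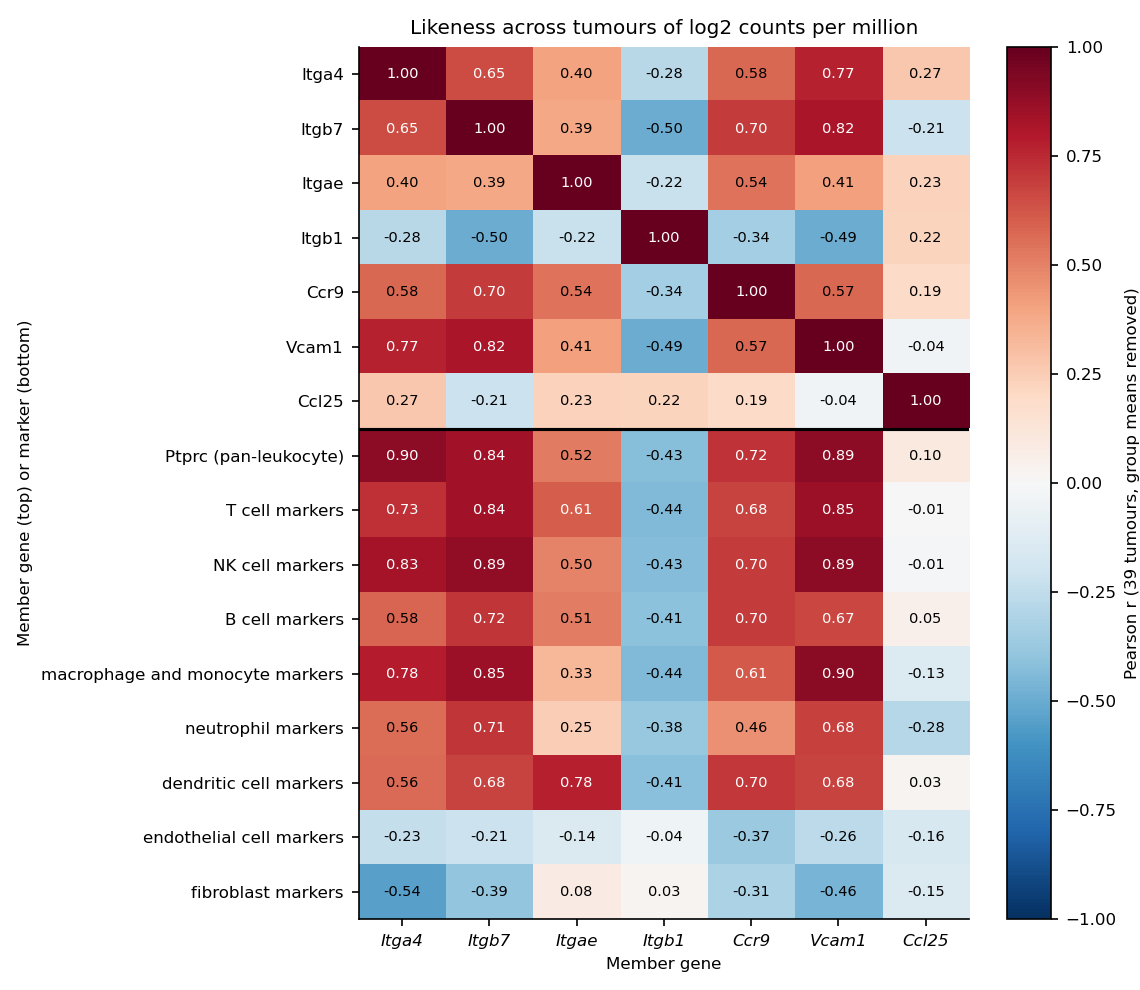
Pearson correlation of log2 CPM over 39 tumours with group means removed, between the 7 members (top) and between members and Ptprc or the mean of each marker list (bottom). Itga4, Itgb7 and Vcam1 follow Ptprc at 0.84 to 0.90, Itgae is nearest to the dendritic cell markers at 0.78, and Ccl25 is at 0.10 for Ptprc.

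The wider homing machinery was described by its counts. Of 17 other homing receptors tested, 3 were higher and none lower with Tretinoin against PBS, beside 20.4% of all genes called, with a median log2 fold change of 0.26 over the list and 0.01 over all genes. S1pr1, the receptor with which lymphocytes leave lymph nodes and which also keeps vessels tight, rose by 0.45 (SE 0.05, edgeR adjusted p = 3.73e-06). Ccr4, a receptor of skin homing, gave 0.67 (SE 0.17, edgeR adjusted p = 0.0110) at a mean of 3.26 CPM, and Itgb2, the β2 chain of leukocyte integrins, 0.61 (SE 0.17, edgeR adjusted p = 0.0178). With ICT, 9 of 17 were higher, beside 21.2% of all genes called, among them Itgb2 at 0.99 (SE 0.23, edgeR adjusted p = 0.00695). With the combination 10 were higher and 2, Ccr10 and Ccr8, lower than in PBS tumours, beside 50.3% of all genes called. Of this list S1pr1 alone passed between Tretinoin+ICT and ICT, at 0.38 (SE 0.05, edgeR adjusted p = 0.000122), whereas it gave -0.01 between ICT and PBS.

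Among the other ligands of the member integrins, 1 of 6 rose and 1 fell with Tretinoin. Emilin1, a matrix ligand of α4β1, gave 0.38 (SE 0.09, edgeR adjusted p = 0.00566), and Spp1, osteopontin, which α4β1 also binds, fell by 0.29 on the log2 scale (edgeR adjusted p = 0.00531). Spp1 was lower again in Tretinoin+ICT than in ICT tumours, at -0.52 (SE 0.12, edgeR adjusted p = 0.0267). Cdh1, the E-cadherin to which αEβ7 binds, was at 11.6 CPM in PBS, 14.7 in Tretinoin, 21.6 in ICT and 29.6 CPM in Tretinoin+ICT tumours on average, and passed with ICT at 0.89 (SE 0.12, edgeR adjusted p = 0.000138). Fn1, fibronectin, did not pass in these comparisons. Of 9 endothelial adhesion molecules tested, 5 were higher and 2 lower with Tretinoin, beside 20.4% of all genes called. Podxl rose with Tretinoin, at 0.47 (SE 0.06, edgeR adjusted p = 3.08e-05), and Sele, E-selectin, fell by 0.60 (edgeR adjusted p = 2.25e-05), with 9 of 9 Tretinoin tumours below the PBS median.

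Of 15 other integrin chains tested, 2 were higher and 1 lower with Tretinoin, a share close to the 20.4% of all genes. Itga9, whose product α9β1 shares the ligand VCAM-1 with α4β1, gave 0.55 (SE 0.08, edgeR adjusted p = 9.23e-05). With ICT 4 of 16 rows were higher and 4 lower, where Itgam, listed under 2 identifiers, counts as 2 rows. Of 9 genes of integrin activation tested, 3 rose and 1 fell with Tretinoin, the latter being Fermt2, a kindlin of stromal cells.

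The first digit of each tumour's label runs in series that never hold more than 1 treatment, and its meaning is not given, so series and treatment cannot be told apart. With each series of the treated group set against each of the PBS group, Itga4 was higher in 4 of 4 pairs with Tretinoin (0.65 to 0.87), 4 of 4 with ICT (0.37 to 0.81) and 4 of 4 with Tretinoin+ICT (0.86 to 1.10), all on the log2 scale. Itgb7 was also higher in 4 of 4 pairs each time, from 0.23 to 0.67 with Tretinoin and from 0.68 to 0.97 with Tretinoin+ICT. For Vcam1 the pairs ran from 0.34 to 0.84, 0.45 to 0.63 and 0.78 to 1.002. Series of the same treatment differed as well. Digit 7 against 3, both Tretinoin, gave -0.03 for Itga4, -0.28 for Itgb7 and -0.44 for Vcam1. For Itgb7 and Vcam1 this is as large as the smallest pairs with Tretinoin. For Itga4, the series differed by 0.21 in PBS and -0.25 in ICT. The 4 pairs of a comparison reuse the same series, so they are not separate replicates. Members that did not pass reached 4 of 4 pairs as well, Itgae with Tretinoin and with Tretinoin+ICT, and Ccr9 with ICT and with Tretinoin+ICT. The share of all genes that do so was not counted.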

How the data were processed

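For 39 tumours the authors aligned single-end reads with HISAT2 2.0.4 to a genome they name mm11, ran SummariseOverlaps per gene and deposited raw counts. Strand and multiple alignments are not given in the sources used here. Of 39676 identifiers, 39495 match GENCODE M21 without their version. Counts were normalised by TMM, genes with low counts were removed by filterByExpr, and the tumours of each pair of groups were tested with the robust quasi-likelihood test of edgeR 4.0.16 in R 4.3.3 with Benjamini-Hochberg adjustment over all genes tested. A gene passed at an adjusted p below 0.05. DESeq2 1.42.0 was an alternative, as were other filters, size factors, a fold change minimum and the omission of tumours. Standard errors are the log2 fold change over the square root of F, and intervals span 1.96 of them. CPM use TMM factors over 39 tumours, and log2 CPM a prior count of 2. The fits were tested on simulated data, and no 2 tumours had identical counts. The members and gene lists were chosen with earlier results of these data known. All members were named in every comparison, with the 3 genes most like each, and up to 3 genes of a list with the smallest adjusted p, not all of them printed; Fn1, Cd3e, Wt1, Upk3b and Pdpn were named outside this rule after their values were seen.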

Additional observations from a re-analysis of the deposited data

Results flagged for a closer look

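None of the 7 members had a tumour far from the others of its group by Dixon's test, over 42 groups examined, of which chance would be expected to mark about 1 in 20. The test looks for a single far tumour. It can miss a pair that is high together, as ICT tumours 63 and 82 were for Itga4, Itgb7 and Vcam1. The effect of Tretinoin differed with and without ICT for 3 genes of the retinoid and adhesion lists, by the interaction test of edgeR over 39 tumours. For Cyp26b1 the effect was lower with ICT by an interaction of -2.36 (SE 0.29, adjusted p = 5.87e-06) on the log2 scale, and for Dhrs3 by -1.18 (SE 0.13, adjusted p = 3.37e-07). For Sele it was higher with ICT, at 0.86 (SE 0.20, adjusted p = 0.0378), Sele measuring 11.9 CPM on average in PBS, 7.89 in Tretinoin, 10.6 in ICT and 12.7 CPM in Tretinoin+ICT tumours.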

How the results depend on the processing

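A minimum log2 fold change of 1 left 0 members in the comparisons of Tretinoin, ICT and Tretinoin+ICT with PBS, since the largest member value was 0.98. In ICT against PBS, 1 member passed without a low-count filter, where more genes were tested, and 1 without tumours 63 and 82. The latter omission gave 3 members in Tretinoin+ICT against ICT. Omission of PBS tumour 14 gave 5 members in Tretinoin+ICT against PBS, and DESeq2 gave 2 in Responder against Non-responder, where it called 10.9% of all genes. Single omissions, added after the data were seen except for the last comparison, gave 1 to 3 members for ICT against PBS, 3 to 5 for Tretinoin+ICT against PBS, 3 to 3 for Tretinoin against PBS, 0 to 0 for Tretinoin+ICT against ICT and 0 to 2 for Responder against Non-responder. They were not run for Tretinoin+ICT against Tretinoin or the interaction. DESeq2 called 587 genes in Tretinoin+ICT against ICT, where edgeR called 283, and 84 against 46 for the interaction. No result that passed changed direction under any alternative run. DESeq2 size factors moved mean levels by -0.26% to 0.03%. Ccr9 was counted 66 to 245 times and Ccl25 103 to 289 times per tumour, which limits how small a difference can be seen.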
